A study of Mus musculus with 2 samples.

Results

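The 5 genes described here, Zc3h7a, Malat1, Neat1, Meg3 and Kcnq1ot1, were taken by symbol from the 56953 genes of single-cell count tables of mouse tissue labelled olfactory epithelium. They were chosen by their measured levels in these tables, so their levels are given as a description, with no test. The tissue came from 2 male wildtype C57BL/6J mice, 1 library each, with no treatment named in the labels, and both mice form 1 group (n = 2 throughout). Levels were compared between groups of cells within these mice, whose libraries differ along with the animals. At least 1000 UMIs (counted RNA molecules) were found in 14369 barcodes of mouse 1 and 10017 of mouse 2, and 12537 and 8930 of them were kept as cells, with 65945481 and 63061420 UMIs and medians of 3884 and 5244.5 UMIs per cell. Levels are in CPM, a gene's UMIs scaled to a fixed total of UMIs, in the summed cells of a group. Intervals are exact 95% Poisson intervals and cover counting error only.

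Malat1 and Neat1 are long noncoding RNAs that are transcribed from neighbouring genes and stay in the nucleus. Malat1 collects in nuclear speckles, the stores of splicing factors, and Neat1 is the scaffold on which paraspeckle proteins assemble. Meg3 and Kcnq1ot1 are imprinted noncoding RNAs. Meg3 is transcribed from the maternal copy of the Dlk1-Dio3 domain, and Kcnq1ot1 from the paternal copy of the Kcnq1 domain, where it runs antisense through Kcnq1 and silences neighbouring genes of its own chromosome. Zc3h7a encodes a protein with CCCH zinc fingers, which has been described in human cells as binding microRNA precursors.

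In the GENCODE annotation of the GRCm38 genome, Zc3h7a (ENSMUSG00000037965) lies on chromosome 16 from 11136592 to 11176393 on the minus strand, and 23.0% of its 39.8 kb are exonic. Malat1 (ENSMUSG00000092341) lies on chromosome 19 from 5795690 to 5802672 and Neat1 (ENSMUSG00000092274) from 5824708 to 5845478, both on the minus strand. Meg3 (ENSMUSG00000021268) lies on the plus strand of chromosome 12 from 109541001 to 109571726, and Kcnq1ot1 (ENSMUSG00000101609) on the minus strand of chromosome 7 from 143203458 to 143296549, opposite to Kcnq1. The count tables were made on GRCm39, so these positions serve only to place the genes. Each of the 5 shares its span with other annotated genes. A small nuclear RNA gene, Gm24145, lies inside Zc3h7a on the same strand, and Gm37376 lies inside Malat1 on the opposite strand. The sources used here do not give whether strand and introns were used in counting, so reads of overlapping genes cannot be told apart.

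The bases before the starts of Zc3h7a and Malat1 are shown because these genes had the largest changes between fibroblast clusters and moved together there. Both sequences are from RefSeq on GRCm38.p6, 250 bases 5′ to 3′ on the minus strand, at chr16:11176394-11176643 and chr19:5802673-5802922, and capitals mark motifs found on either strand.
Zc3h7a: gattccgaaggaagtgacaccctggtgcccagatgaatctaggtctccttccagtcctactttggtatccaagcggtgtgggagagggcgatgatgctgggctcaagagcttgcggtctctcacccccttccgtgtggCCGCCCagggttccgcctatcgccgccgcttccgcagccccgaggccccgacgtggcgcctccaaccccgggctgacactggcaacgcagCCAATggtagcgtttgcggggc
Malat1: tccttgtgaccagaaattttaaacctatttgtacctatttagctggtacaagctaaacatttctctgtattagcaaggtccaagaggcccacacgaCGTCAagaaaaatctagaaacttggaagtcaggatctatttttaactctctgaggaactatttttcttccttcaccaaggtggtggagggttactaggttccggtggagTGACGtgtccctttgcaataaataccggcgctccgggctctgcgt
Searched motifs were the TATA box TATAAA, the CCAAT box CCAAT, the GC box GGGCGG, the AP-1 site TGANTCA, the cyclic AMP response element TGACGTCA and its shorter form TGACG, which lies inside the full element. RefSeq gives a pair of starts each for Zc3h7a and Meg3, and window 1 of Zc3h7a is the one printed. It holds 1 GC box and 1 CCAAT box, motifs present in 32.7% and 33.8% of 32851 windows of the same length before other starts. It is 64.4% G or C, with 19 CG pairs, against medians of 52.4% and 6 over all windows. Window 2 of Zc3h7a, at chr16:11176342-11176591, overlaps window 1 and holds 3 GC boxes and 1 CCAAT box, with 71.2% G or C and 30 CG pairs. The Malat1 window is 44% G or C and holds 2 copies of TGACG, which 17.8% of windows hold. Window 1 of Meg3 holds a single stretch that matches the TATA box on both strands, 1 CCAAT box and the full element TGACGTCA, found in 1.55% of windows. Window 2 of Meg3 holds none of the searched motifs and 0 CG pairs. The window of Kcnq1ot1 holds 3 CCAAT boxes and 1 TGACG. A match is a description of these letters and not a site of binding. No window was matched for Neat1, so 4 of the 5 members are covered.

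The cells fell into 23 clusters from genes that did not include the members but did include Peak1, whose level followed that of Zc3h7a closely. Marker lists named 11 classes with at least 20 cells in both mice, of which the fibroblast-like class (5196 and 4341 cells) and the cartilage-like class (5118 and 3068 cells) were the largest. No cluster was named from the markers of mature or immature olfactory neurons, globose basal cells, sustentacular cells or Bowman glands, and the summed level of the 5 markers of mature olfactory neurons was between 0.857 and 6.49 CPM in the fibroblast-like clusters, with 2 to 4 of them at 0. The 5 markers of immature neurons summed to between 21.5 and 101.5 CPM there. Both libraries held 515 barcode names in common among those with at least 1000 UMIs, 3.58% and 5.14% of each. Leaving these barcodes out moved the levels of the 5 members in the fibroblast-like clusters by factors of 0.986 to 1.04. Over the 11 classes the factors were 0.969 to 1.04 for Zc3h7a, and 0.799 to 1.60 for the other members, with the extremes in the neutrophil-like cells of mouse 2, of which 20 were found. Beside counting error, a share of every count can come from free RNA: barcodes with at most 50 UMIs held Zc3h7a at 2443 and 2672 CPM, Malat1 at 3290 and 2155 CPM, Neat1 at 1404 and 751 CPM, Meg3 at 535 and 587 CPM and Kcnq1ot1 at 73.4 and 39.3 CPM in mouse 1 and mouse 2.

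As whole classes, fibroblast-like cells and the pericyte or smooth muscle-like class had the most Zc3h7a, and neutrophil-like cells the least. It took 177597 UMIs in mouse 1 and 207057 in mouse 2, which is 0.269% and 0.328% of all UMIs, and averaged 2988 ± 417 CPM (SD, n = 2). Fibroblast-like cells held 60.6% and 63.4% of its UMIs. Their level was 6060 CPM in mouse 1 (6024 to 6096) and 6859 CPM in mouse 2 (6822 to 6896), the highest of the 11 classes on average, and pericyte or smooth muscle-like cells had 5152 and 6913 CPM, which overlapped it. Endothelial-like cells followed with 3674 and 3912 CPM, a mix of cluster 10, led by Ccl21a and Lyve1, at 5658 and 4163 CPM and cluster 12, led by Fabp4 and Rgs5, at 1746 and 3287 CPM. In mouse 1 cluster 10 was above the pericyte or smooth muscle-like level. Next were basal or squamous epithelial-like cells with 4651 and 1655 CPM, a difference between the mice that spans several places in the order and rests on 35 cells in each.

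The lower end of the order of Zc3h7a was made up of immune, muscle, glial and cartilage-like cells. Macrophage-like cells had 1684 and 2158 CPM, mast-like cells 1592 and 1620 CPM, skeletal muscle-like cells 2107 and 800 CPM, T or NK-like cells 1557 and 1210 CPM and Schwann or ensheathing glia-like cells 1110 and 1570 CPM. Cartilage-like cells had 897 and 1145 CPM, so their level was lower than that of fibroblast-like cells by 2.67 ± 0.12 on the log2 scale (a difference of -2.67, SD, n = 2). Neutrophil-like cells were lowest in both mice with 392 and 425 CPM. The highest class average was 15.8 times the lowest, and 3 of the 10 pairs of neighbours in the order did not overlap between the mice: pericyte or smooth muscle-like over endothelial-like (as a whole class, not for cluster 10 alone), macrophage-like over mast-like, and cartilage-like over neutrophil-like cells. Only the values of the mice were compared, without their counting error, and the mast-like values rest on 343 and 186 UMIs. The macrophage-like, mast-like, skeletal muscle-like, T or NK-like, Schwann or ensheathing glia-like, cartilage-like and neutrophil-like classes had less Zc3h7a in both mice than the barcodes with at most 50 UMIs, and the part of free RNA in these levels was not tested.

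**Figure D1:**
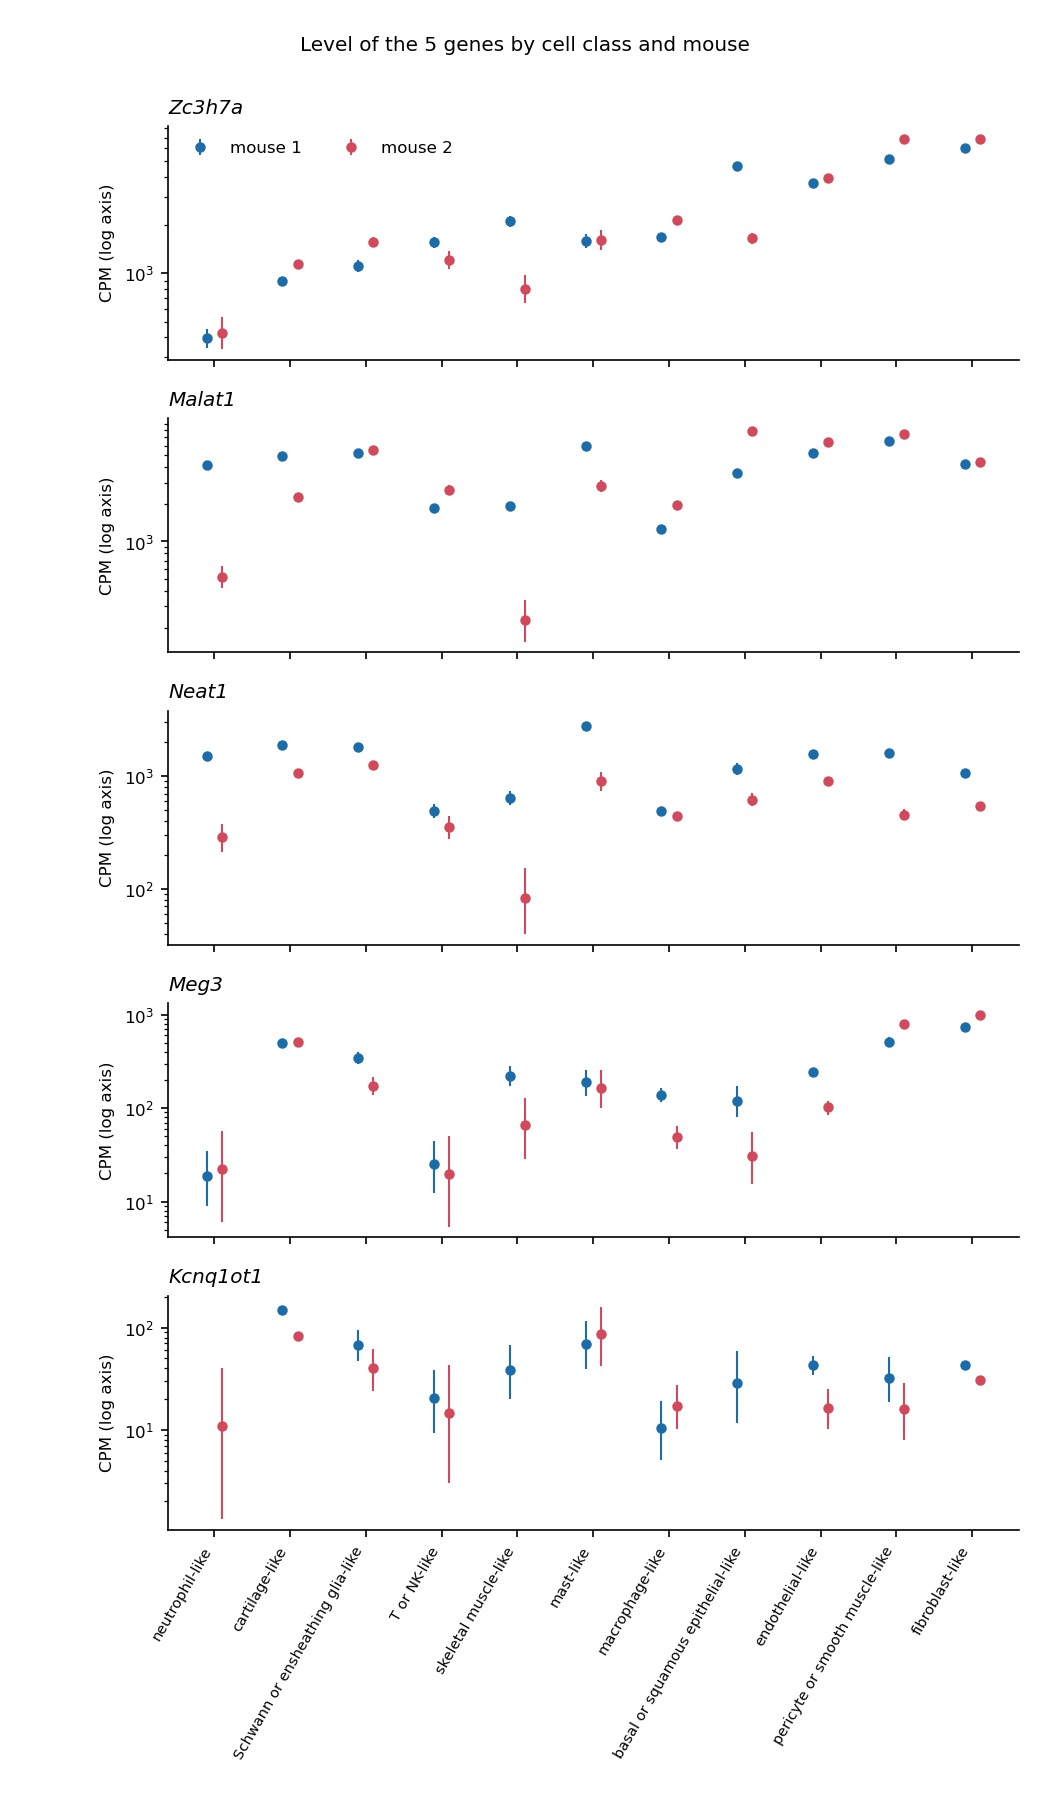
Level of each of the 5 genes (CPM, log axis) in the 11 classes, with 1 point for each mouse and bars for 95% Poisson intervals; points at 0 are not drawn (Kcnq1ot1 in neutrophil-like cells of mouse 1 and in basal or squamous epithelial-like and skeletal muscle-like cells of mouse 2). Zc3h7a and Meg3 are highest on average in fibroblast-like cells and lowest in neutrophil-like cells, and Neat1 is higher in mouse 1 in all 11 classes.

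Within the fibroblast-like class Zc3h7a ranged over 9.40 times between clusters. The 5 clusters of the class all carried the fibroblast markers, with a summed level of at least 40817 CPM. Cluster 3, led by Inmt, Col3a1 and Dpep1, had 14326 CPM of Zc3h7a in mouse 1 and 12541 CPM in mouse 2. Cluster 6, led by Pi16, Mfap5 and Cd248, had 12605 and 10331 CPM. Cluster 7, led by the tendon gene Thbs4 and with Tnmd and Fmod among its leading genes, had 6074 and 7130 CPM. Cluster 5, led like cluster 6 by Pi16 and Cd248, had 2457 and 2167 CPM, and cluster 0, led by the chemokine genes Ccl7 and Ccl2, had 1388 and 1472 CPM. The order of the clusters was the same in both mice, and cluster 3 had 10.3 and 8.52 times the level of cluster 0. The level of cluster 0 was close to that of cartilage-like cluster 2, at 1358 and 1455 CPM. Cartilage-like clusters 1, 4 and 9 were lower, at 662 to 1186 CPM. The lower level of the cartilage-like class thus does not hold against every fibroblast-like cluster.

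The difference was seen in the median cell. After each cell was thinned to 1000 UMIs, a cell of cluster 3 held a median of 9 UMIs of Zc3h7a in mouse 1 and 8 in mouse 2, with quartiles of 3 to 19 and 2 to 18. A cell of cluster 0 held a median of 1 in both mice, with quartiles of 0 to 2. At least 10 UMIs were held by 48.6% and 44.3% of the cells of cluster 3, against 1.71% and 0.961% of those of cluster 0. Cells of cluster 7 spread widely, with 19.2% and 26.3% of them at 10 UMIs or more. Clusters 5 and 6 share leading genes, and 7.19% and 2.95% of the cells of cluster 5 and 51.6% and 42.9% of those of cluster 6 reached 10 UMIs.

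Genes of the response to tissue dissociation differed between the same clusters. The summed level of 12 such genes, among them Fos, Jun and Egr1, was 4208 and 3384 CPM in cluster 3 and 2357 and 2120 CPM in cluster 6, the 2 clusters with the most Zc3h7a. It was 8588 and 5234 CPM in cluster 7, 7313 and 5886 CPM in cluster 5 and 9204 and 8873 CPM in cluster 0. The 5 markers of a chemokine-high fibroblast subtype summed to 271 and 179 CPM in cluster 3 and to 10296 and 7608 CPM in cluster 0. Of 3 listed genes that overlap ribosomal RNA sequence, 2 were in the count tables, and both were higher in cluster 3. AY036118 was at 248 and 193 CPM against 72.9 and 102 CPM in cluster 0, and Lars2 at 1221 and 1393 CPM against 606 and 1035 CPM. The part of these genes in the difference of Zc3h7a was not tested. An unnamed cluster of 564 and 496 cells, led by Igfbp2 and Coch, had 7319 and 6773 CPM of Zc3h7a.

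**Figure D2:**
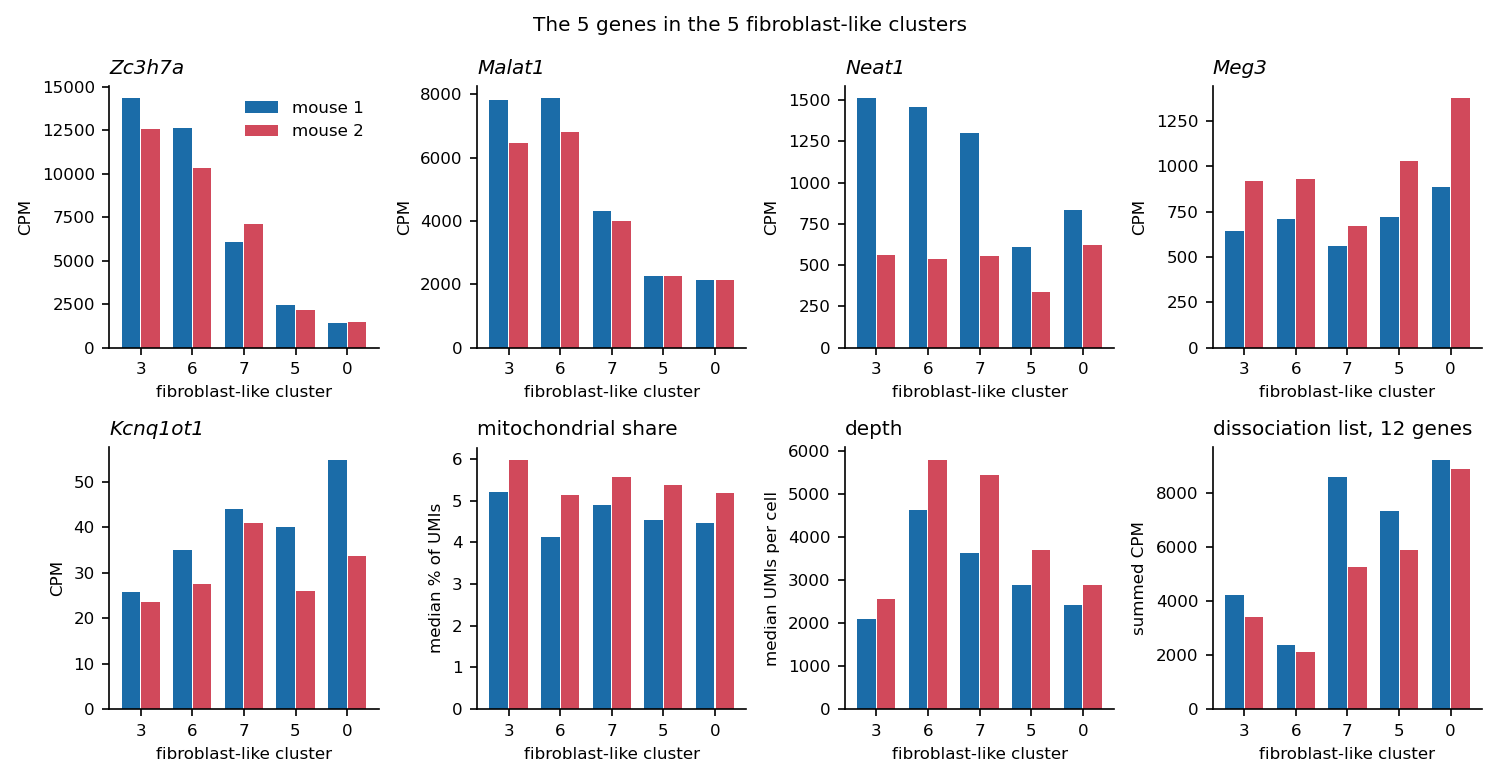
Level of each of the 5 genes (CPM) in the 5 fibroblast-like clusters, with 1 bar for each mouse, above or beside the median mitochondrial share (% of UMIs), the median depth (UMIs per cell) and the summed level of 12 dissociation genes (CPM). Zc3h7a and Malat1 are highest in clusters 3 and 6 and lowest in cluster 0 in both mice, whereas Meg3 is highest in cluster 0 in both.

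Malat1 took 313588 UMIs in mouse 1 and 208309 in mouse 2, 4755 and 3303 CPM. Pericyte or smooth muscle-like cells had the highest average, with 6580 and 7465 CPM, followed by endothelial-like cells with 5254 and 6454 CPM. Schwann or ensheathing glia-like cells had 5216 and 5543 CPM, and fibroblast-like cells 4269 and 4401 CPM, the closest values of the mice in any class. The mice differed most in skeletal muscle-like cells, with 1935 and 231 CPM, and in neutrophil-like cells, with 4205 and 519 CPM, classes with 21 and 20 cells in mouse 2. Only 1 of the 10 pairs of neighbours in the order did not overlap, so most of this order is within the spread of the mice. Cartilage-like cells had 4964 and 2309 CPM, which is above the fibroblast-like class in mouse 1 and below it in mouse 2, and no direction between these classes can be given.

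Fibroblast-like clusters 3 and 6 had the most Malat1 and cluster 0 the least, as for Zc3h7a. Malat1 was at 7868 and 6816 CPM in cluster 6 and at 7808 and 6471 CPM in cluster 3. It was at 4313 and 3986 CPM in cluster 7, 2271 and 2263 CPM in cluster 5 and 2119 and 2124 CPM in cluster 0. The highest cluster had 3.46 times the level of the lowest on average. Among the cells of the class, thinned to 1000 UMIs, Malat1 and Zc3h7a had a Spearman rho of 0.351 over 5196 cells of mouse 1 and 0.235 over 4341 cells of mouse 2. Inside cluster 0 rho was near 0 (-0.0158 and -0.0328), and inside cluster 3 it was 0.410 and 0.219. These cells share a library and the sum of 1000 UMIs.

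Neat1 was higher in mouse 1 than in mouse 2 in 11 of 11 classes, by a median factor of 1.88 (range 1.11 to 7.82), and higher in mouse 1 also in the barcodes with at most 50 UMIs. Whole libraries had 1604 CPM in mouse 1 and 859 CPM in mouse 2. Mast-like cells had the highest average, with 2803 and 897 CPM on 67 and 34 cells, and Schwann or ensheathing glia-like cells had 1826 and 1246 CPM. Cartilage-like cells had 1893 and 1068 CPM, against 1067 and 537 CPM in fibroblast-like cells, a log2 difference of 0.91 ± 0.12 (SD, n = 2) with the same sign in both mice. They held 70.1% and 71.5% of all Neat1 UMIs. The class is large and deep, with medians of 6763 and 10801 UMIs per cell against 3884 and 5244.5 over all cells. Its share of Neat1 UMIs therefore reflects its size and depth as well as its level. Macrophage-like cells, with 486 and 439 CPM, were the class in which the mice differed least.

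In the fibroblast-like clusters the order of Neat1 differed between the mice. Mouse 1 had 1510 CPM in cluster 3, 1457 CPM in cluster 6 and 1303 CPM in cluster 7, and 607 CPM in cluster 5 and 835 CPM in cluster 0. Mouse 2 had 560, 535 and 556 CPM in clusters 3, 6 and 7, 339 CPM in cluster 5 and its highest level, 622 CPM, in cluster 0. The Spearman rho of Neat1 and Malat1 over the cells of the class was 0.390 in mouse 1 and 0.109 in mouse 2. In both mice cluster 5 was lowest.

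The proteins of the bodies in which these RNAs lie were tested between classes in a model across 6395 genes held out of the clustering (edgeR, quasi-likelihood test, Benjamini-Hochberg adjustment, threshold 0.05), whose log2 differences are given with their SE. Against fibroblast-like cells, 10.8% of the tested genes were called higher and 9.85% lower in cartilage-like cells. None of 15 tested paraspeckle proteins and none of 18 nuclear speckle proteins were called there, and none had an unadjusted p under 0.05, whereas DESeq2 called 3 paraspeckle proteins (1 higher and 2 lower) and 0 speckle proteins. The shares over all tested genes are from edgeR. None is given for DESeq2, so its counts here and below cannot be set against one. In endothelial-like cells 7.15% were called higher and 6.29% lower. For the pericyte or smooth muscle-like class the shares were 5.47% and 4.11%. In each of these classes edgeR called 0 paraspeckle proteins, 1 had an unadjusted p under 0.05 and DESeq2 called 1. In macrophage-like cells, with 12.3% of the tested genes called higher and 14.3% lower, edgeR called 1 paraspeckle protein, the chromatin remodeller Smarca4, at 86.4 and 77.5 CPM against 41.3 and 36.0 CPM in fibroblast-like cells (log2 difference 1.16 ± 0.40 SE, adjusted p = 0.0341), a call that was lost without the replicate block. No speckle protein was called by edgeR or DESeq2 in endothelial-like, pericyte or smooth muscle-like or macrophage-like cells, nor had any an unadjusted p under 0.05. The median log2 difference of the speckle proteins was 0.23 in cartilage-like cells and -0.01 in macrophage-like cells, against -0.03 and -0.07 over all tested genes.

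Of 15 tested long noncoding RNAs other than the members, edgeR called 1 lower in each of cartilage-like, endothelial-like, pericyte or smooth muscle-like and macrophage-like cells, and 1 higher in macrophage-like cells. Over all tested genes edgeR called 9.85%, 6.29%, 4.11% and 14.3% lower in these classes, and 12.3% higher in macrophage-like cells. DESeq2, for which no share over all genes is given, called 1 higher and 6 lower in macrophage-like cells, 1 and 1 in endothelial-like cells, and 0 higher and 1 lower in each of the other 2 classes. Mir99ahg, the host transcript of a microRNA cluster, was lower than in fibroblast-like cells in each of the 4 classes. It was at 63.0 and 61.7 CPM in cartilage-like cells, 116 and 90.8 CPM in endothelial-like cells, 84.7 and 87.4 CPM in the pericyte or smooth muscle-like class and 8.43 and 29.7 CPM in macrophage-like cells, against 295 and 277 CPM in fibroblast-like cells. The log2 differences were -2.04 ± 0.57, -1.71 ± 0.58, -2.01 ± 0.60 and -3.78 ± 0.66 (SE), with edgeR adjusted p of 0.0115, 0.0494, 0.0299 and 8.89e-05. The calls in the endothelial-like and pericyte or smooth muscle-like classes were lost without the replicate block, and the first of these also with DESeq2. The fibroblast-like values are shared by the 4 comparisons. The other edgeR call was Dleu2, higher in macrophage-like cells at 121 and 111 CPM against 48.7 and 46.5 CPM (1.36 ± 0.46, adjusted p = 0.0305), which was lost without the block.

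Of 27 tested CCCH zinc finger genes, the family of Zc3h7a, edgeR called 1 lower in cartilage-like cells and 2 higher in macrophage-like cells. These counts were below the shares over all tested genes, 9.85% lower in cartilage-like and 12.3% higher in macrophage-like cells. DESeq2 called 3 lower in cartilage-like cells, and 3 higher and 3 lower in macrophage-like cells. Cpsf4, a subunit of the factor that cleaves pre-mRNA, was lower in cartilage-like cells, at 4.75 and 4.41 CPM against 11.2 and 11.2 CPM (-1.13 ± 0.38, edgeR adjusted p = 0.0331). Zc3h12a, an RNase that degrades inflammatory mRNAs, was higher in macrophage-like cells, at 121 and 130 CPM against 42.4 and 28.2 CPM (2.00 ± 0.59, edgeR adjusted p = 0.0128), and so was Mkrn1 (1.42 ± 0.44, adjusted p = 0.0175). Without the replicate block the calls of Cpsf4 and Zc3h12a were lost. In the endothelial-like and pericyte or smooth muscle-like classes edgeR and DESeq2 called 0 of the 27, with 0 at an unadjusted p under 0.05. Of 11 tested genes of microRNA processing, edgeR called only the Argonaute gene Ago3, higher in cartilage-like cells at 92.8 and 73.6 CPM against 46.7 and 43.8 CPM (1.029 ± 0.35, adjusted p = 0.0355), a call that was lost without the replicate block. Over all tested genes 10.8% were called higher in cartilage-like cells. In the other 3 classes edgeR called 0, none had an unadjusted p under 0.05, and DESeq2 called 1 in endothelial-like cells and 0 in the others.

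Meg3 was highest in the fibroblast-like, pericyte or smooth muscle-like and cartilage-like classes. It was at 748 and 1001 CPM in fibroblast-like cells, 508 and 794 CPM in the pericyte or smooth muscle-like class and 496 and 513 CPM in cartilage-like cells, whose log2 difference from fibroblast-like cells was -0.78 ± 0.26 (SD, n = 2). Schwann or ensheathing glia-like cells had 346 and 173 CPM, mast-like cells 190 and 166 CPM and endothelial-like cells 247 and 102 CPM. The step between cartilage-like cells and these lower classes was beyond the spread of the mice. T or NK-like cells had 24.97 and 19.7 CPM and neutrophil-like cells 18.9 and 22.1 CPM on 10 and 4 UMIs, and the highest class average was 42.7 times the lowest. The barcodes with at most 50 UMIs, at 535 and 587 CPM, stood above cartilage-like cells and above these immune cells.

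Among the fibroblast-like clusters Meg3 ran against Zc3h7a at one end. Cluster 0, the lowest in Zc3h7a, had the most Meg3, with 884 and 1374 CPM, and cluster 7 the least, with 560 and 670 CPM. Clusters 5, 6 and 3 lay between, at 720 and 1032 CPM, 711 and 930 CPM and 642 and 919 CPM. Every cluster was higher in mouse 2. Noncoding neighbours of Meg3 had lower levels in cluster 3 than in cluster 0 in both mice. Rian was at 94.8 and 110 CPM in cluster 3 and at 217 and 277 CPM in cluster 0, and Mirg at 22.2 and 24.4 CPM in cluster 3 and at 98.9 and 73.5 CPM in cluster 0.

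Of the 6 listed genes of the Dlk1-Dio3 domain, 4 passed the filter on low counts. Over all tested genes 9.85% were called lower in cartilage-like, 6.29% in endothelial-like and 14.3% in macrophage-like cells. In pericyte or smooth muscle-like cells 5.47% were called higher. Rian and Mirg were lower in both endothelial-like and macrophage-like cells, and Dlk1 was called in 3 classes, in 1 of them higher. In endothelial-like cells 3 of the 4 were lower: Rian at 58.6 and 11.7 CPM against 154 and 148 CPM in fibroblast-like cells (-2.53 ± 0.56, edgeR adjusted p = 0.00239), Rtl1 (-2.03 ± 0.54, adjusted p = 0.0110) and Mirg (-1.87 ± 0.55, adjusted p = 0.0213). Without the replicate block Rian was left as the 1 call, and DESeq2 did not call Mirg. Macrophage-like cells had lower Rian, at 43.2 and 13.4 CPM (-2.53 ± 0.58, adjusted p = 0.00167), and lower Mirg (-2.43 ± 0.64, adjusted p = 0.00534). Dlk1, which encodes a transmembrane protein related to Notch ligands, had no UMI in macrophage-like cells of either mouse and was called lower there too. Dlk1 was lower in cartilage-like cells, at 0.715 and 1.21 CPM against 8.73 and 6.21 CPM (-2.83 ± 0.51, adjusted p = 0.000357), and higher in pericyte or smooth muscle-like cells, at 52.7 and 105 CPM (3.05 ± 0.52, adjusted p = 0.000388). No other gene of the domain was called in those 2 classes.

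Other imprinted genes were lower in macrophage-like cells, where 9 of 11 tested were called lower and 0 higher. Over all tested genes 14.3% were called lower there and 12.3% higher. Airn, a noncoding RNA that silences Igf2r, was at 39.0 and 30.6 CPM against 279 and 247 CPM in fibroblast-like cells (-2.87 ± 0.52, edgeR adjusted p = 0.000137). Grb10, Peg3 and Sgce had the smallest adjusted p, with log2 differences of -3.07 ± 0.50, -3.52 ± 0.60 and -3.12 ± 0.56. Fewer were called elsewhere, all lower: Igf2 in cartilage-like cells, at 5.34 and 8.30 CPM against 77.0 and 76.6 CPM (-3.30 ± 0.52), Ndn, Igf2 and Peg3 in endothelial-like cells, and Peg3 and Grb10 in pericyte or smooth muscle-like cells. Shares of all tested genes called lower were 9.85% (cartilage-like), 6.29% (endothelial-like) and 4.11% (pericyte or smooth muscle-like). The count of 1 of 11 in cartilage-like cells is near its share. Without the replicate block the calls of Igf2 in endothelial-like and of Grb10 in pericyte or smooth muscle-like cells were lost. The median log2 difference over the 11 genes was -3.07 in macrophage-like, -0.56 in endothelial-like, -0.97 in pericyte or smooth muscle-like and 0.08 in cartilage-like cells.

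Kcnq1ot1 was the least counted of the 5, with 6980 UMIs in mouse 1 and 3777 in mouse 2, 106 and 59.9 CPM. Cartilage-like cells had the highest average, at 149 CPM (145 to 153) and 83.5 CPM (80.5 to 86.5), against 43.1 and 30.4 CPM in fibroblast-like cells, a log2 difference of 1.62 ± 0.24 (SD, n = 2). Mast-like cells had 69.6 and 87.1 CPM on 15 and 10 UMIs. Endothelial-like cells had 43.1 and 16.4 CPM and macrophage-like cells 10.5 and 17.2 CPM. Neutrophil-like cells had 0 UMIs in mouse 1 and 2 in mouse 2, and no UMI was found in the basal or squamous epithelial-like or skeletal muscle-like cells of mouse 2. In the fibroblast-like clusters it was at 54.7 and 33.6 CPM in cluster 0, 44.0 and 41.0 CPM in cluster 7 and 25.7 and 23.4 CPM in cluster 3.

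Genes of the Kcnq1 domain were partly higher in the same cartilage-like cells. Kcnq1, the potassium channel gene that Kcnq1ot1 overlaps, was at 153 and 88.8 CPM against 47.3 and 35.0 CPM in fibroblast-like cells (1.69 ± 0.53, edgeR adjusted p = 0.0243). Cdkn1c, an inhibitor of the cell cycle that is expressed from the maternal chromosome, was at 514 and 443 CPM against 149 and 139 CPM (1.88 ± 0.60, adjusted p = 0.0261), and Tspan32 was also higher (1.99 ± 0.67, adjusted p = 0.0366). These were 3 of 7 tested genes, against 10.8% of all tested genes called higher, and 0 of the 7 were called without the replicate block. In the endothelial-like and pericyte or smooth muscle-like classes edgeR called 0 of the 7, with 3 and 1 at an unadjusted p under 0.05, and DESeq2 called 1 and 0. In macrophage-like cells edgeR called 1 of the 7 higher and 3 lower, against 12.3% higher and 14.3% lower over all tested genes. The 1 higher call is near its share. Macrophage-like cells had higher Tspan32 (4.59 ± 0.78, edgeR adjusted p = 9.3e-05) and lower Cdkn1c, at 24.2 and 16.3 CPM (-2.83 ± 0.67, adjusted p = 0.00213). They also had lower Osbpl5 (-3.01 ± 0.72) and lower Cd81 (-1.74 ± 0.60), the last of which was lost without the block.

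The counts of Kcnq1ot1 and Kcnq1 were compared as a ratio of UMIs. Over 19 sums of the classes other than mast-like cells, it had a median of 0.786 and a range of 0 to 1.4. It was 0.972 and 0.940 in cartilage-like cells and 0.911 and 0.869 in fibroblast-like cells. In mast-like cells it was 0.161 and 0.2, with Kcnq1 at 432 and 436 CPM. The genes lie on opposite strands, and reads of one cannot be told apart from reads of the other if strand was not used. For Meg3 and Rian, which do not overlap, the ratio was 4.38 and 4.85 in cartilage-like cells and 4.85 and 6.75 in fibroblast-like cells.

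**Figure D3:**
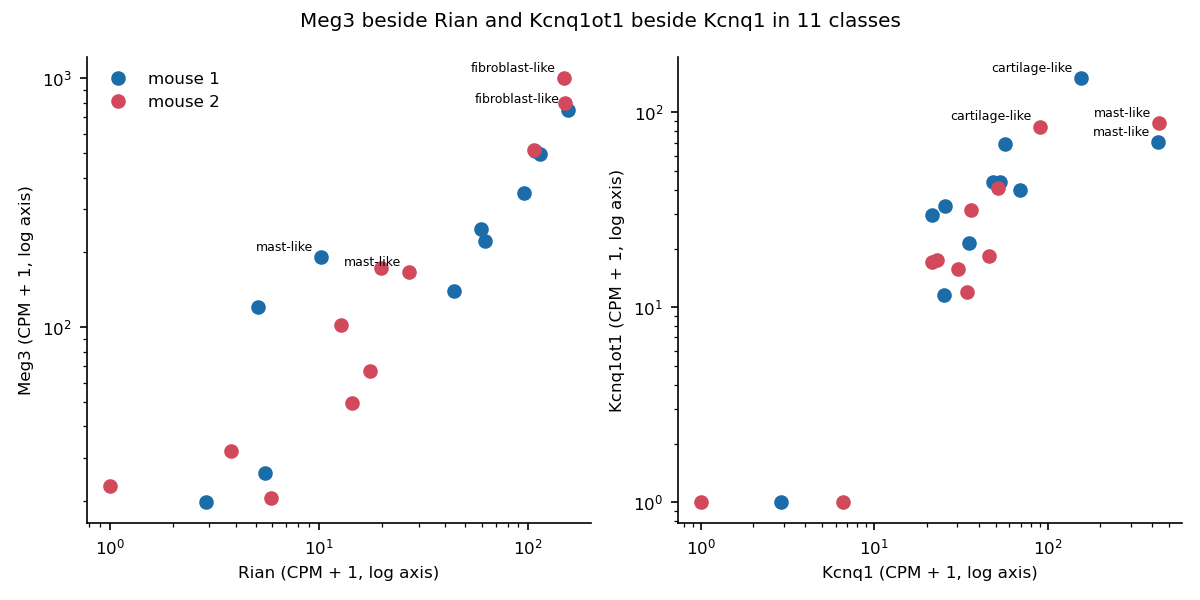
Level of Meg3 against Rian and of Kcnq1ot1 against Kcnq1 (CPM + 1, log axes), with 1 point for each class and mouse. The mast-like points of Kcnq1 stand apart at 432 and 436 CPM beside 69.6 and 87.1 CPM of Kcnq1ot1.

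Targets of p53 were read because Neat1 is among the genes p53 induces and Meg3 has been described in human cells as acting on p53. In cartilage-like cells 5 of 11 tested were higher and 1 lower, led by Sesn2, at 120 and 56.2 CPM against 29.7 and 14.8 CPM in fibroblast-like cells (2.13 ± 0.43, edgeR adjusted p = 0.000639). Over all tested genes 10.8% were called higher and 9.85% lower in cartilage-like cells. The cell cycle inhibitor Cdkn1a was at 1944 and 1833 CPM against 659 and 550 CPM (1.81 ± 0.51, adjusted p = 0.0115), and Gdf15 was lower (-2.06 ± 0.54, adjusted p = 0.00659). In endothelial-like cells 2 of the 11 were called higher, Gdf15 at 261 and 75.9 CPM (4.42 ± 0.54) and Plk2 (2.62 ± 0.65). Over all tested genes 7.15% were called higher there. For the pericyte or smooth muscle-like class Gdf15 was the 1 higher call of 11, against 5.47% of all tested genes. That count is near its share, and the median log2 difference of the list in this class was -0.63. In macrophage-like cells 4 were higher, among them Mdm2 and Gdf15, and Phlda3 was lower, against 12.3% higher and 14.3% lower over all tested genes. Without the replicate block 3 in cartilage-like and 3 in macrophage-like cells were called higher. Of the 12 genes of the dissociation response, Ier2 was higher (1.57 ± 0.52, adjusted p = 0.0302) and Hspa1b lower (-1.97 ± 0.44, adjusted p = 0.00151) in cartilage-like cells by edgeR, and Ier2 was lost without the block. Elsewhere edgeR and DESeq2 called 0 of the 12, with 0 at an unadjusted p under 0.05.

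The level of Zc3h7a moved with the mitochondrial share of a barcode. Among barcodes with at least 1000 UMIs it was at 1216 CPM in mouse 1 and 1222 CPM in mouse 2 where under 2% of the UMIs were mitochondrial, at 1957 and 2087 CPM between 2% and 5%, at 5171 and 5472 CPM between 5% and 10% and at 11209 and 10484 CPM between 10% and 15%. Barcodes above the limit for cells went on to 14502 and 12961 CPM between 15% and 25%, and to 14146 and 13170 CPM above. Cells of each band differ in type, and cartilage-like cells had median shares of 3.68% and 3.94%, against 4.62% and 5.48% in fibroblast-like cells. Across 20 clusters with at least 20 cells in both mice, Pearson's r of log2(CPM + 10) of Zc3h7a with the median mitochondrial share was 0.649, a description of clusters from the same 2 libraries.

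The difference between fibroblast-like clusters 3 and 0 kept its direction within bands of like mitochondrial share or depth, and was smaller at the highest share. Cluster 3 had 12.2 times the Zc3h7a level of cluster 0 under 2% in mouse 1, 10.5 and 9.51 times between 2% and 5% in mouse 1 and mouse 2, 8.66 and 6.87 times between 5% and 10%, and 5.80 and 5.99 times between 10% and 15%. By depth, over 3 successive bands between 1000 and 10000 UMIs, the factor was 7.73 and 5.19 in the lowest band, 11.4 and 8.52 in the middle band and 10.98 and 9.25 in the highest. Within fibroblast-like cells thinned to 1000 UMIs, the Spearman rho of Zc3h7a with the mitochondrial share was 0.208 and 0.259, and with depth -0.00374 and 0.0483. Cluster 3 against cluster 0 within the same mitochondrial bands was 1.69 to 6.93 for Malat1 and 0.553 to 0.712 for Meg3.

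**Figure D4:**
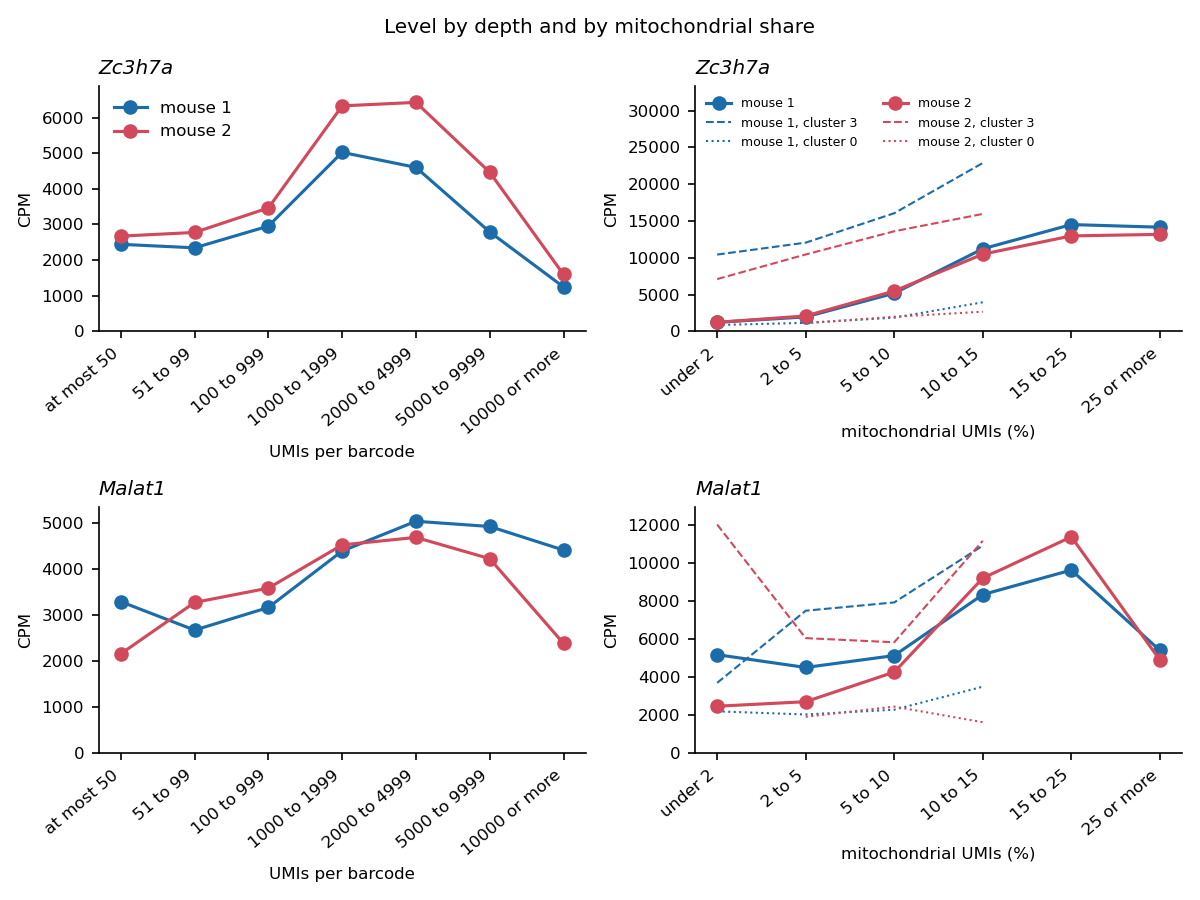
Level of Zc3h7a and Malat1 (CPM) by UMIs per barcode over all barcodes (left) and by mitochondrial share over barcodes with at least 1000 UMIs (right), with 1 line for each mouse; dashed and dotted lines are cells of clusters 3 and 0, drawn for bands of at least 20 cells. Zc3h7a is 1246 and 1596 CPM at 10000 or more UMIs and at least 12961 CPM where over 15% of UMIs are mitochondrial.

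Malat1 did not go on with the mitochondrial share in the same way. It was at 5175 and 2456 CPM where the share was under 2%, at 4500 and 2696 CPM between 2% and 5%, at 9638 and 11390 CPM between 15% and 25%, and at 5401 and 4899 CPM above 25%. Meg3 was at 619 and 739 CPM between 5% and 10% and at 141 and 116 CPM above 25%. By depth, over all barcodes, Zc3h7a was at 2443 and 2672 CPM up to 50 UMIs, 2953 and 3463 CPM between 100 and 1000, 5024 and 6329 CPM between 1000 and 2000 and 1246 and 1596 CPM at 10000 or more. The cartilage-like class was the deeper of the 2 largest, with medians of 6763 and 10801 UMIs against 2647.5 and 3596 in fibroblast-like cells. Kcnq1ot1 was at 57.2 and 27.4 CPM between 1000 and 2000 UMIs and at 119 and 65.1 CPM at 10000 or more.

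The genes whose levels were most like those of Zc3h7a over the 20 clusters, among 8622 genes, were Gm55118, Gm55094, Gm55276, Peak1 and Gm56171, with Pearson's r of 0.998, 0.995, 0.990, 0.990 and 0.964 of log2(mean CPM + 10). Peak1 encodes a cytoskeletal pseudokinase. The ratio of Zc3h7a to Gm55118 UMIs stayed between 4.60 and 10.8 over the 22 sums of a class in a mouse, with a median of 5.94, and between 4.63 and 8.07 in the fibroblast-like clusters. That of Zc3h7a to Peak1 lay between 2.14 and 6.93, with a median of 3.95. Outside the kept cells the ratios were close to these. In barcodes with at most 50 UMIs they were 4.33 and 5.49 to Gm55118 and 3.59 and 4.34 to Peak1, and above 15% mitochondrial UMIs 4.55 and 5.81 and 4.13 and 5.01. In the deposited gene list Gm55118 stands directly after Zc3h7a and directly before Gm24145, the gene inside Zc3h7a, and Gm55094 stands 2 rows after Peak1. Consecutive rows of that list lie on the same chromosome in 99.95% of pairs, but the positions of these Gm genes were not looked up. Whether Gm55118 and Zc3h7a, or Gm55094 and Peak1, share transcripts or reads was not tested, so the close likeness cannot be read as that of separate genes. Peak1 was among the genes used to form the clusters, and Zc3h7a was not. The differences of Zc3h7a between clusters are therefore not independent of how the clusters were formed.

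**Figure D5:**
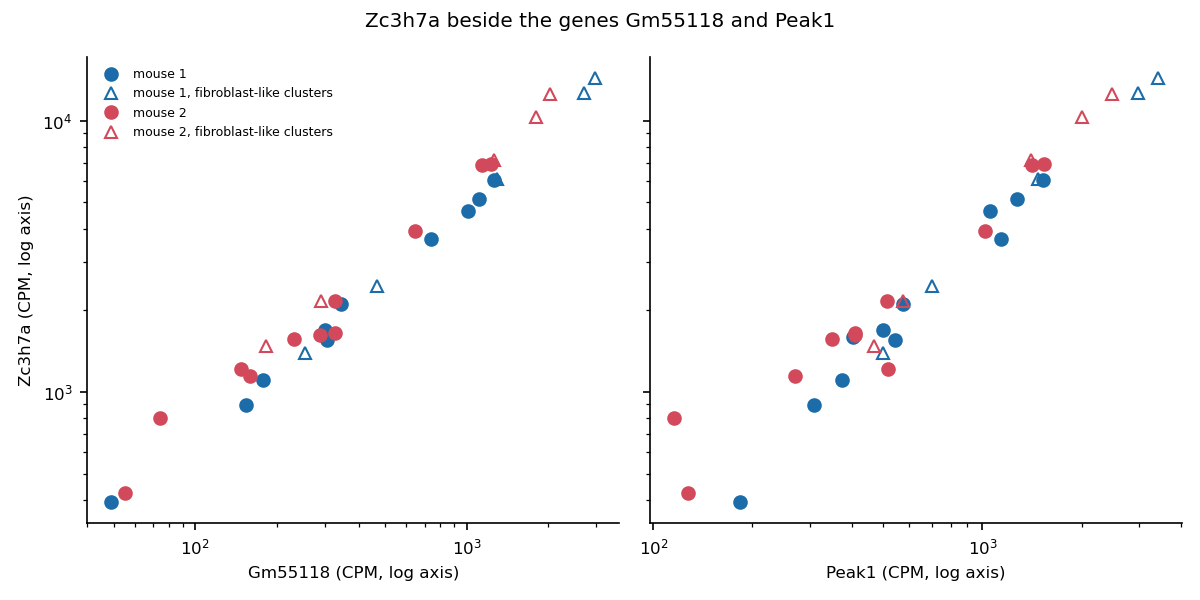
Zc3h7a against Gm55118 and Peak1 (CPM, log axes), with a filled point for each class and an open triangle for each fibroblast-like cluster, in the colour of the mouse. The ratio to Gm55118 lies between 4.60 and 10.8 and that to Peak1 between 2.14 and 6.93 over the classes.

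The closest genes to the other members were less tightly tied, apart from Meg3. For Malat1 the closest was Gm37376, which lies inside it on the opposite strand (r = 0.912), followed by Pgrmc1 (0.816), Snapc3 (0.783), Mkln1 (0.777) and Cfap20 (0.772). Within mouse 1 and mouse 2 alone, r was 0.824 and 0.973 for Gm37376, 0.569 and 0.786 for Pgrmc1, 0.322 and 0.828 for Snapc3, 0.485 and 0.844 for Mkln1 and 0.461 and 0.635 for Cfap20, so the likeness to Snapc3 and Mkln1 rests mainly on mouse 2. The ratio of Malat1 to Gm37376 was 10.8 and 7.25 in cartilage-like cells and 4.52 and 4.82 in fibroblast-like cells. For Neat1 they were Cul1 (0.784), 1700126G02Rik, Bcar1, Dnmbp and Prpf6 (0.756), the last with 0.312 in mouse 1 and 0.544 in mouse 2. For Meg3 they were the collagen VI genes Col6a2 (0.978) and Col6a1 (0.969), its neighbour Rian (0.962), Efemp2 (0.955) and Itgb5 (0.952). For Kcnq1ot1 they were Papss2, which makes the sulfate donor used on cartilage matrix (0.932), Ifitm10 (0.898), Maged2 (0.890), Carmil1 (0.888) and Ldlrad4 (0.888). Between members, r over the clusters was 0.689 for Malat1 and Neat1, 0.595 for Zc3h7a and Malat1 and 0.0289 for Zc3h7a and Neat1.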

How the data were processed

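Single-cell RNA-seq of 2 libraries, 1 for each mouse, was analysed. Counts are UMI counts per gene and barcode as deposited by the authors. STAR, Cell Ranger 7.0.0 and GRCm39 are named per the submitters' processing notes, and the settings for introns and strand are not given in the sources used here. That the counts are of UMIs was read from the tool named.

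Barcodes with at least 1000 UMIs, at least 300 genes and at most 15% mitochondrial UMIs were kept. Scrublet called 0 doublets, so the cells with the highest doublet scores were removed at 0.8% for each 1000 cells (1599 in mouse 1 and 750 in mouse 2). Clusters were formed with scanpy 1.11.5 and leidenalg 0.10.2 from 2000 variable genes among 28182, at resolution 1, and 28771 genes, the 5 members among them, were held out. Clusters were named from 25 marker lists by fixed scores. Counts were summed for each class and mouse, and 11 classes with at least 20 cells in both mice were fitted with edgeR 4.0.16 (quasi-likelihood, TMM, 12429 genes, Benjamini-Hochberg), with the mouse as replicate block because all classes come from the same animals. DESeq2 1.42.0 was the alternative, and the shares of all tested genes that are printed are those of edgeR. The members were given no test. With 2 mice, p-values rest on the spread between these libraries and classes.

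The members and the gene lists were chosen with earlier results of these data known. Named genes are the members, for each member the 5 genes most alike over clusters, and up to 4 listed genes with the smallest adjusted p for each comparison and list, with the listed neighbours of the imprinted domains. Total depth was 95844802 and 86049057 UMIs. Settings tried as alternatives are given at the end.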

Additional observations from a re-analysis of the deposited data

How the results depend on the processing

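Of 135 values of member levels under other settings, 122 were counted as the same, 12 moved by at least the SD between the mice and 1 changed sign. Values without a mouse are those of the other mouse alone. They were counted as the same unless the sign changed, and could not have moved by more than the SD. The change of sign was Malat1 in cartilage-like against fibroblast-like cells, with a log2 difference of -0.36 over both mice and 0.22 without mouse 2 (range -0.93 to 0.22). Leaving out each mouse, which gives the value of the other, gave ranges of -2.76 to -2.58 for Zc3h7a, 0.83 to 0.99 for Neat1, -0.96 to -0.59 for Meg3 and 1.46 to 1.79 for Kcnq1ot1 in the same comparison. For Zc3h7a it was -2.67, -2.45 as a mean of per-cell CPM and -2.42 with doublets kept. Zc3h7a in the highest over the lowest fibroblast-like cluster was 3.23 on the log2 scale (3.09 to 3.37 without each mouse), 2.91 at resolution 0.5 and 3.83 at resolution 2. These values are over 5, 4 and 12 fibroblast-like clusters, so they depend on the number of clusters and are not of like groups. The mean Spearman rho of Zc3h7a with the mitochondrial share was 0.234 (0.208 to 0.259). Genes called were 1319 in cartilage-like, 859 in endothelial-like, 613 in pericyte or smooth muscle-like and 1701 in macrophage-like cells. Fitting only the compared classes gave 6063, 1667, 1835 and 3123. Such a fit has fewer sums and fewer residual degrees of freedom than the 10 of the main fit, so its counts are not stronger evidence. With no filter on low counts, 2388 were called in cartilage-like cells, where more genes were tested. Without the replicate block the counts were 889, 608, 452 and 1422. The cause of the other differences was not tested. With DESeq2 size factors the median of all genes in pericyte or smooth muscle-like cells shifted by 0.12. Leaving out a mouse was not run for the gene tests, since 1 mouse leaves no residual degrees of freedom. Leaving out barcodes shared by both libraries was chosen after the data were seen. Depth limits Kcnq1ot1 most, with at most 33 UMIs in a mouse in the classes other than cartilage-like, fibroblast-like and endothelial-like cells.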
